A study of Homo sapiens with 30 samples.

Results

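Open chromatin near the cyclins and kinases of the G1 phase and near RB1 was examined in peak lists from 2 human prostate cancer cell lines treated with the androgen R1881. The 9 genes were the D-type cyclin genes CCND1, CCND2 and CCND3, the E-type cyclin genes CCNE1 and CCNE2, the kinase genes CDK4, CDK6 and CDK2, and RB1. They were taken by name for their place in one pathway, with earlier results of these data known. The summits of all peak lists were merged into 683007 regions that do not overlap, each reaching 250 bp to either side of a summit. A region was assigned to one of the 9 genes when its centre lay within 100 kb of the gene body given by RefSeq on GRCh38.p14. This gave 846 regions: 110 at CCND1, 85 at CCND2, 117 at CCND3, 88 at CCNE1, 109 at CCNE2, 73 at CDK4, 115 at CDK6, 82 at CDK2 and 67 at RB1. The nearest protein-coding gene was the member itself for 341 of the 846. That share was highest at CDK6, with 92 of 115 regions, and lowest in the gene-dense surroundings of CDK4 and CDK2, with 2 of 73 and 1 of 82. A region is therefore named below by its position, and no region is shown to act on the gene it is listed under.

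Growth of both lines responds to androgen. LNCaP, derived from a lymph node metastasis, received vehicle or 0.03, 0.06, 0.1 or 10 nM R1881, a synthetic androgen that is little metabolised. VCaP, derived from a vertebral metastasis and known for an amplified androgen receptor gene, received vehicle or 0.01, 0.03, 0.06 or 10 nM. All groups, the vehicle groups included, had first spent 48 hours in medium with 8% charcoal-treated serum, which is depleted of steroids, and were harvested 24 hours after the addition of hormone or vehicle. Each of the 10 groups held 3 libraries, so each line contributed 15 of the 30 libraries. Nothing in the labels says that the 3 libraries of a group were separate cultures, so p-values measure the spread between these libraries, which may be technical.

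The 9 genes form the switch by which a cell leaves G1. D-type cyclins are induced by growth signals and activate CDK4 and CDK6, which phosphorylate the RB1 protein. Phosphorylated RB1 releases E2F transcription factors, which raise the transcription of genes for DNA synthesis, CCNE1 and CCNE2 among them, and cyclin E with CDK2 completes the phosphorylation of RB1. In prostate cancer cells, androgen can drive passage through this switch, and D-type cyclins are regulated downstream of the androgen receptor. Loss of RB1 is known from advanced tumours. The peak lists hold no measure of growth, so whether a dose raised or lowered it is not known from these data.

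The deposited lists hold no read counts, so the data are given as ranks. In each library, a region takes the rank of its strongest peak (the lowest p among peaks with their summit inside the region) as a percentile from 0 to 100 of a list shortened to the length of the shortest list of the line. A value of 0 means that the shortened list had no summit there: the peak was below the authors' threshold, ranked past the point where the list was shortened, or had its summit in a neighbouring region. At the 86 regions named by the rules used here, 307 of 1290 values were 0 in LNCaP and 515 of 1290 in VCaP, and 43 and 35 of these had a peak in the full deposited list. Differences are in percentile points with their standard error, and a region was called at an adjusted p under 0.05 from limma with Benjamini-Hochberg adjustment over all regions tested. The low doses are combined as the mean of the 3 groups between vehicle and 10 nM.

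The libraries differed in depth and list length. List length ranged from 135254 to 223998 in LNCaP, and from 105034 to 170787 in VCaP. Background pileup, a relative measure of depth recovered from the lists, was 2.07 to 2.49 at 10 nM in VCaP, against 1.14 and 1.09 in vehicle replicates 1 and 2 and 2.11 in vehicle replicate 4. In LNCaP it was 4.06 to 5.1 at 10 nM and 3.06 to 4.83 in vehicle. A summit within 1 kb of a gene end was listed in each library for 7 to 8 of 8 luminal marker genes and for 7 to 9 of the 9 genes studied here. Per library, at most 2 of 3 basal markers had one, as had at most 2 of 3 stromal markers and at most 2 of the 2 immune markers.

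Promoter sequences from RefSeq (GRCh38.p14) were at hand for 5 of the 9 genes, in 8 windows of 250 bases before to 50 bases after a start. Windows for CDK4 and CCNE1 are printed because both promoters ranked high in every library, and the outer and inner starts of CCND3 because the lines differed at one of them. Sequences run 5′ to 3′ on the gene's strand.
CDK4, chr12:57752261-57752560, minus strand: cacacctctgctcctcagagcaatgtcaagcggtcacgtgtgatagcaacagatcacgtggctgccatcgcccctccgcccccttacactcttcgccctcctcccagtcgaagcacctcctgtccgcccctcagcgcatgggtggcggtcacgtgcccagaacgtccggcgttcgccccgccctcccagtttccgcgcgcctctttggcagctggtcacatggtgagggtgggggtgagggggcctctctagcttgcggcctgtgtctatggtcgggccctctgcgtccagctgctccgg
CCNE1, chr19:29811741-29812040, plus strand: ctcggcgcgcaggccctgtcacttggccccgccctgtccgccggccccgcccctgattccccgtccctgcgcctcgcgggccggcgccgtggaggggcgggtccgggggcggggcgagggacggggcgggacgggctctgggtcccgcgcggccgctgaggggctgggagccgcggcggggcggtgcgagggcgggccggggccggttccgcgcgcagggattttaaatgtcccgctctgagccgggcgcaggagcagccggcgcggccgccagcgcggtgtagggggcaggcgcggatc
CCND3 outer start, chr6:42048639-42048938, minus strand: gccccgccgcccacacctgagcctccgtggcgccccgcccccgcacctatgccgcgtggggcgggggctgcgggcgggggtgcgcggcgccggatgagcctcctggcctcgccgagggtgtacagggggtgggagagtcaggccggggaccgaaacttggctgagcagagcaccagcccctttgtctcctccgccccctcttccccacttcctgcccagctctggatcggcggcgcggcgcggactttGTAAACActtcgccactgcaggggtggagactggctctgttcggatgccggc
CCND3 inner start, chr6:41941759-41942058, minus strand: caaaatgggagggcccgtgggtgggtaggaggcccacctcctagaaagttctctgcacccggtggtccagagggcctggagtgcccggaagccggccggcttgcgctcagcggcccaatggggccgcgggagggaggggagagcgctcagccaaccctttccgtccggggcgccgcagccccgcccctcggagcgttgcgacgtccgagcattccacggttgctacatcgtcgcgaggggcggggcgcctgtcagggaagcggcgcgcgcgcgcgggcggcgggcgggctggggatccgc
Capitals in the outer CCND3 window mark the forkhead motif TGTTTAC read from the opposite strand, the one match in these 4 windows to any motif searched. The search covered both strands for that motif, for the androgen receptor core motif AGAACA, for the full androgen response element, and for the E2F motifs TTTGGCGC, TTTCGCGC and TTTCCCGC. Of 35116 promoter windows of the same length, 3.42% held the forkhead motif, 14.8% the core motif, 0.00285% the full element, and 0.652%, 0.515% and 1.63% the E2F motifs in the order given. The 4 printed windows are rich in G and C: 66% in CDK4, 81% in CCNE1, 72.3% at the outer and 73.7% at the inner CCND3 start, against a median of 58.7% over all windows. A motif match is a description of the letters and not of binding.

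The CDK4 promoter was among the strongest peaks of every library. The region chr12:57752224-57752724, which overlaps the printed window, ranked from 91.5 to 99.7 in LNCaP and from 97.3 to 99.1 in VCaP. At 10 nM it had 99.4, 91.9 and 91.5 in LNCaP, against 99.4, 99.5 and 94.7 in vehicle. The groups overlapped, and the difference of -3.58 ± 2.32 was not called (adjusted p = 0.287, limma). The CCNE1 start, chr19:29811609-29812109, ranked from 86.1 to 98.8 over the 30 libraries. The CDK2 end at chr12:55966591-55967091 ranked from 86.7 to 94.1, and the RB1 start at chr13:48303491-48303991 from 70.6 to 90. Near the higher-coordinate end of CCNE2, chr8:94895542-94896042 ranked from 92.4 to 98.7 except for a value of 0 in replicate 5 of LNCaP at 0.03 nM and in replicate 2 of VCaP at 0.01 nM.

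CCND3 has an outer and an inner start, and the lines differed at the outer one. In the region chr6:42048608-42049108, which overlaps the outer window printed above, all 15 LNCaP libraries had 0. VCaP had 42.4, 71.1 and 55.4 in vehicle, medians of 58.4, 52.7 and 26.2 at 0.01, 0.03 and 0.06 nM, and 37.6, 0 and 26.6 at 10 nM. Over the doses given to both lines, LNCaP minus VCaP was -38.8 ± 4.28 (adjusted p = 2.63e-08, limma, 12 libraries per line), and it was not called among the 50000 strongest entries (-4.84). The VCaP change at 10 nM, -34.9 ± 14.6, was not called (adjusted p = 0.157, limma). The region at the outer start lies 1.18 kb inside the higher-coordinate end of the gene body. A separate peak summit 0.617 kb beyond that end, in TAF8, was listed in all 15 LNCaP libraries at 81.8 to 93.9. The 0 in LNCaP therefore does not mean that the gene end lacked a listed peak, but the TAF8 peak is not one at the outer start. At the inner start, chr6:41941593-41942093 ranked from 92.5 to 97.1 in LNCaP and from 77.1 to 95.6 in 14 VCaP libraries, with 0 in the other.

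The remaining gene ends were less uniform. At the lower-coordinate end of CCND1, chr11:69640907-69641407 ranked from 70.6 to 89.5 in LNCaP and from 0 to 77.8 in VCaP, a line difference of 21.1 ± 6.87 (adjusted p = 0.0097, limma), which was not called with a replicate block (14.4, adjusted p = 0.121). The higher-coordinate end, chr11:69654527-69655027, ranked from 90.4 to 97.5 in all 30 libraries, and LNCaP minus VCaP was -5.23 ± 0.793 (adjusted p = 3.79e-06, limma). CCND2 had only low-ranked peaks at the region named at its end: chr12:4273947-4274447 was at 0 in 14 of 15 shortened LNCaP lists and reached 34.7 in VCaP, and the full lists held a peak there in 5 of 15 LNCaP and 10 of 15 VCaP libraries. CDK6 had none at 92835632 on chromosome 7 in the shortened lists, whereas chr7:92833465-92833965, at an inner start, ranked from 0 to 84.3 in LNCaP and from 0 to 88.6 in VCaP. None of the regions within 1 kb of a gene end was called at 10 nM against vehicle, among 12 tested in LNCaP and 13 in VCaP. At an unadjusted p under 0.05, 1 was higher and 2 were lower in LNCaP, and none passed in VCaP.

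**Figure D1:**
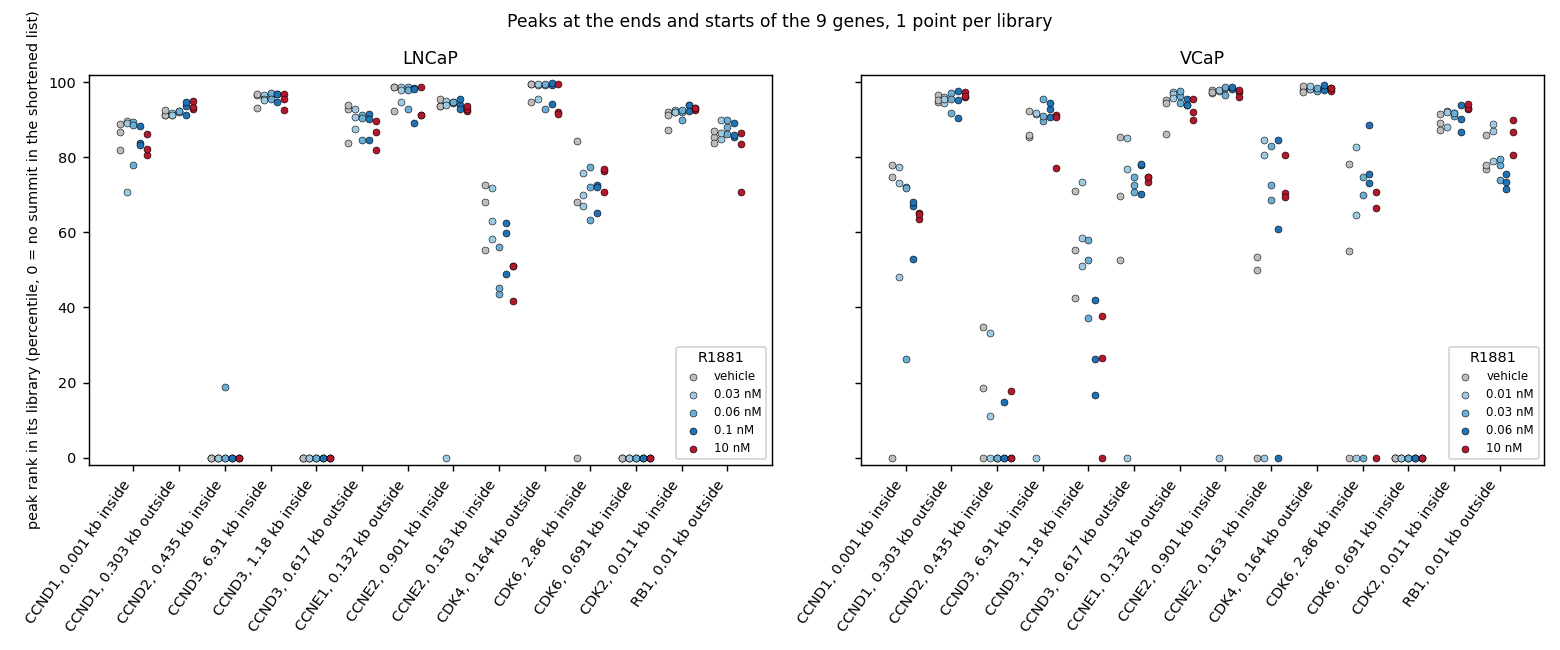
Percentile rank by −log10 p (vertical axis, 0 to 100) of regions at the gene ends and RefSeq starts (horizontal axis, named by distance from the nearer end) in LNCaP and VCaP. Each point is 1 library, coloured by dose; the CDK4 region ranks from 91.5 to 99.7 and the CCNE1 region at its start from 86.1 to 98.8.

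Away from the gene ends, regions were called in both directions. At 10 nM against vehicle, 28 of 213 tested LNCaP regions rose (13.1%) and 24 fell (11.3%), against 16.7% and 10.2% of all 165132 regions tested. In VCaP, 12 of 181 rose (6.63%) and 3 fell (1.66%), against 7.07% and 2.71% of all 121367 regions. Without VCaP vehicle replicates 1 and 2, the shallow ones, 1 VCaP rise was called in place of 12. The other 11 kept their direction, with adjusted p from 0.0775 to 0.604 (limma), and the 3 falls were not called either. That fit leaves 1 vehicle library, which is assumed to vary like the other groups, and the part of depth in these results was not tested. The shares among the 9 genes were thus close to or below those over the genome. The median difference was -0.447 over the members and -0.0844 over all regions in LNCaP, and 0.0553 and 0 in VCaP.

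**Figure D2:**
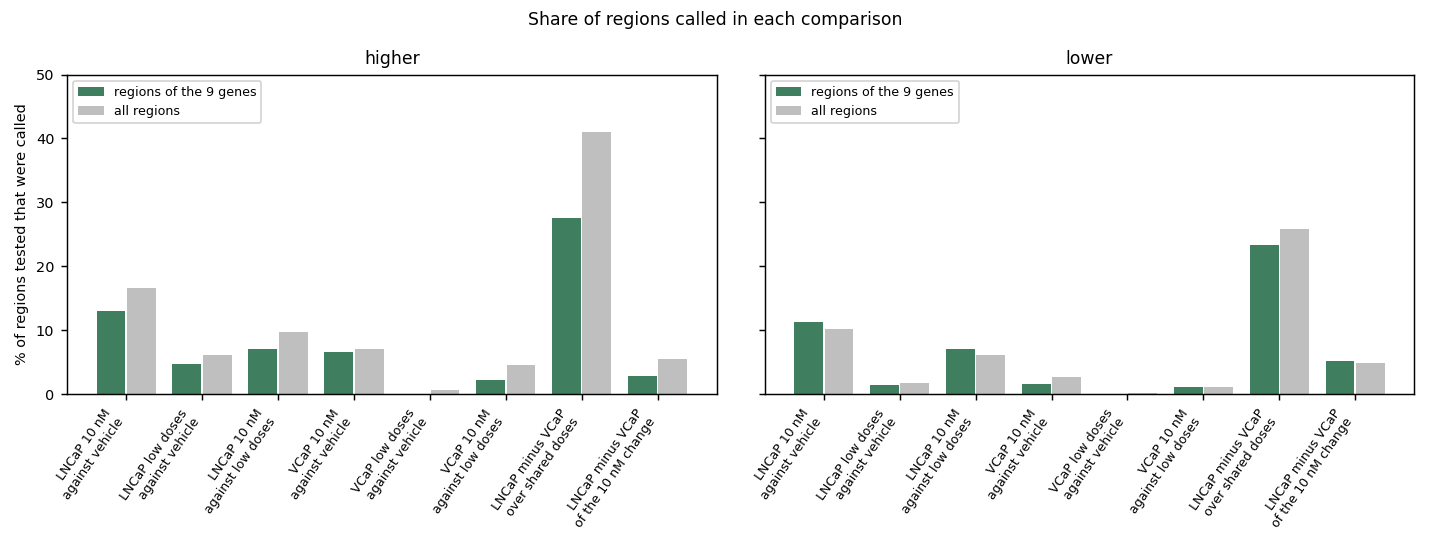
Percent of tested regions called higher or lower (vertical axis) in each of the 8 comparisons (horizontal axis), for the 9 genes (green bars) beside all regions (grey bars). At 10 nM against vehicle, 13.1% of member regions rose in LNCaP and 6.63% in VCaP, against 16.7% and 7.07% of all regions.

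The counts of called regions varied by gene, and whether they varied more than the small numbers allow was not tested. Over all regions tested, 16.7% rose and 10.2% fell in LNCaP, and 7.07% and 2.71% in VCaP. In LNCaP, CDK6 had the most rises, 8 of 33 tested regions, followed by CDK2 with 5 of 25 and CCND3, CCNE2 and RB1 with 4 each of 24, 30 and 23. CCNE2 had the most falls, 6 of 30, and CCNE1 had 4 of 24. CCND1 and CDK4 had 2 falls each, of 17 and 27 tested regions, and no rise called; at an unadjusted p under 0.05, no CCND1 region and 1 CDK4 region was higher. In VCaP, CDK6 again had the most rises, 5 of 25, and all 3 falls lay at CCNE2. CCND1, CCND3 and CDK4 had none called in VCaP in either direction by limma; at an unadjusted p under 0.05, these genes had 1, 3 and 1 regions higher and 0, 2 and 1 lower.

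Rises and falls occurred both inside and outside the gene bodies. Inside the gene bodies and over 1 kb from an end, 9 of 49 tested LNCaP regions rose and 5 fell, and 4 of 34 VCaP regions rose and none fell. Outside the bodies, 19 of 152 LNCaP regions rose and 19 fell, and 8 of 134 VCaP regions rose and 3 fell. Of all regions tested, at any position, 16.7% rose and 10.2% fell in LNCaP, and 7.07% and 2.71% in VCaP. Those shares were not split by position, so the counts here are a description only.

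**Figure D3:**
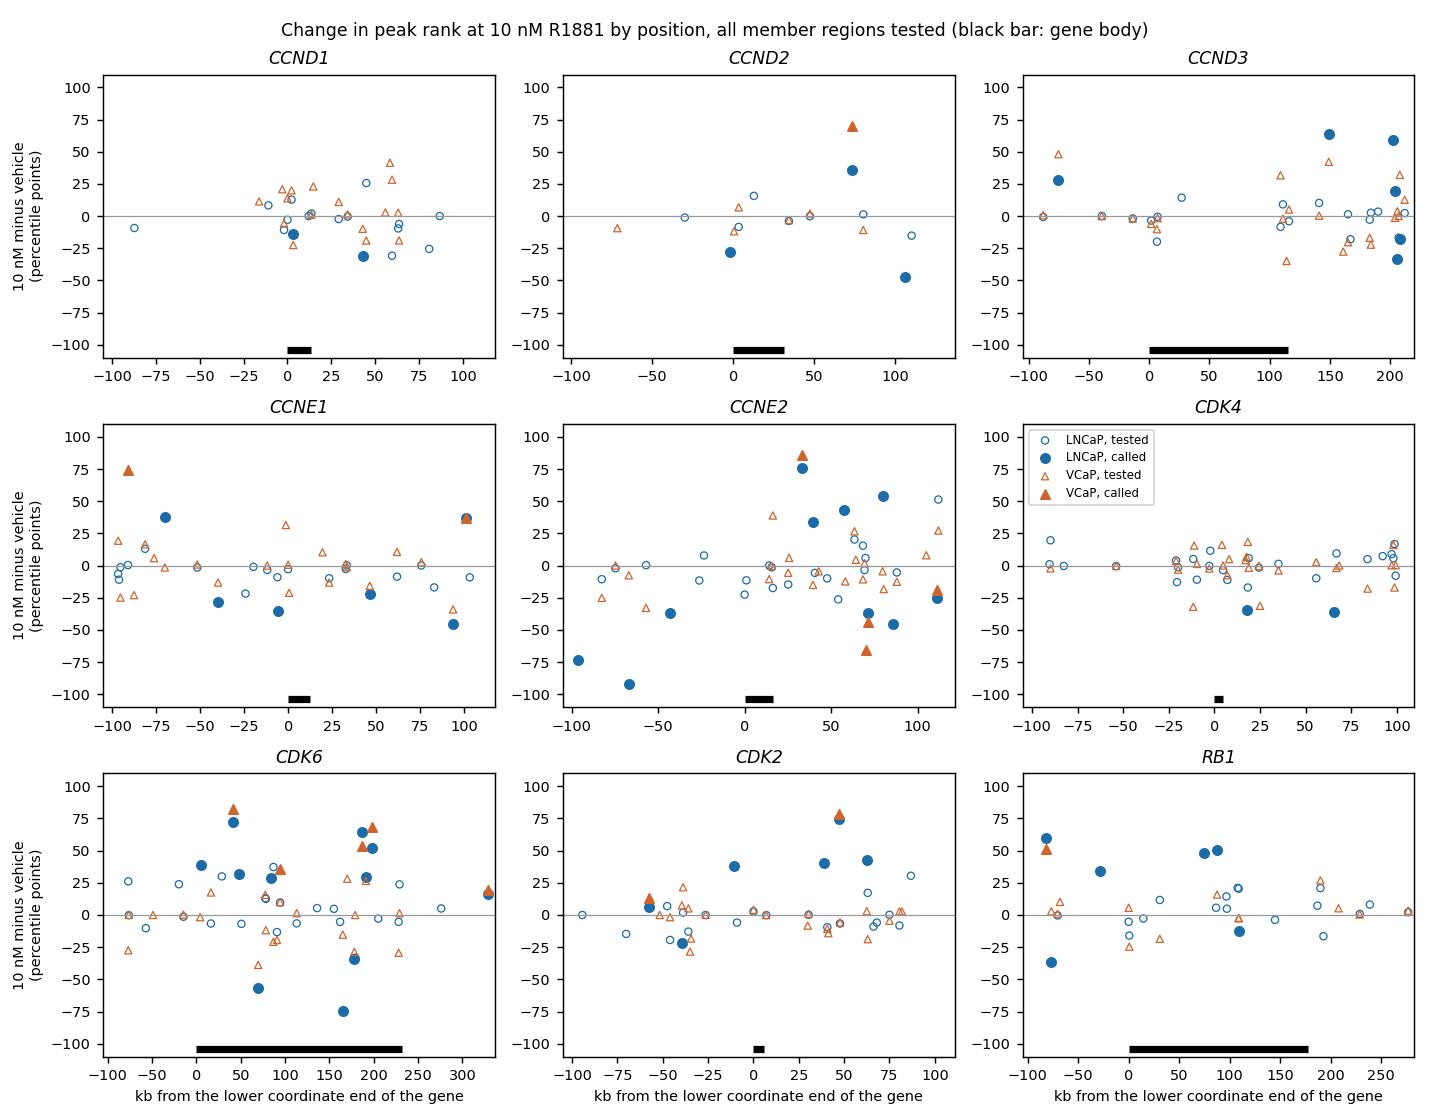
Difference in percentile rank between 10 nM and vehicle (vertical axis) against the distance in kb from the lower-coordinate end of each gene (horizontal axis) for every tested region, with a black bar for the gene body. Filled symbols are called regions; CDK6 has the most rises, 8 in LNCaP and 5 in VCaP, and the 3 VCaP falls lie at CCNE2.

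CCND1, whose product is the main D-type cyclin of many epithelial cells, showed one graded fall. The region chr11:69644175-69644675 lies inside the gene, 3.27 kb from its lower-coordinate end. In LNCaP it ranked 95.5, 96.4 and 96.3 in vehicle, 93.4, 94.7 and 93.8 at 0.03 nM, 92.8, 92.4 and 91 at 0.06 nM, 90.4, 90.6 and 88.5 at 0.1 nM, and 84.1, 81.7 and 79.9 at 10 nM. No 2 of the 5 groups overlapped, and each dose lay below the one before it. At 10 nM the region fell by 14.1 points against vehicle (± 1.26, adjusted p = 1.2e-06, limma) and by 10.1 against the low doses (± 1.03, adjusted p = 9.18e-06, limma), comparisons that share the 10 nM libraries. The low doses fell by 4.08 against vehicle (± 1.03, adjusted p = 0.0212, limma), a call that ended without any single vehicle library, at -4.37 without replicate 3 (adjusted p = 0.0503, limma), -3.92 without replicate 4 (adjusted p = 0.0909, limma) and -3.94 without replicate 5 (adjusted p = 0.0606, limma). It also ended when all peaks as deposited were kept (-3.04), when peaks were ranked by fold enrichment (-16) and with no filter (-4.08). The authors' fold enrichment at this region was 5.91, 5.03 and 5.02 at 10 nM and 8.42, 9.02 and 4.98 in vehicle, so on that scale the groups overlapped through vehicle replicate 5. In VCaP the region had 77.2, 23.3 and 83.4 at 10 nM and 82.8, 74.1 and 94.4 in vehicle, and the difference of -22.5 ± 12.3 was not called (adjusted p = 0.317, limma). The difference between the lines in the size of the change, 4.27 ± 12.6, was not called either (adjusted p = 0.898, limma).

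CCND2 and CCND3, the other D-type cyclin genes, had changes at a distance. At CCND2, chr12:4346929-4347429 lies 41.8 kb beyond the gene in TIGAR, which encodes a regulator of glycolysis. It ranked 23.4, 40.2 and 44.2 at 10 nM in LNCaP and 0 in all 3 vehicle libraries, and 80.4, 56.1 and 73.2 at 10 nM in VCaP with 0 in all 3 vehicle libraries. The rank rose in both lines, with differences of 35.9 ± 6.36 in LNCaP (adjusted p = 0.000493, limma) and 69.9 ± 15.7 in VCaP (adjusted p = 0.0072, limma). In VCaP the low-dose means were 12.2 at 0.01 nM, 29.1 at 0.03 nM and 52.9 at 0.06 nM, whereas in the shortened LNCaP lists the lowest dose with a summit was 0.1 nM, in 2 of 3 libraries. The full list of LNCaP replicate 5 at 0.06 nM also held the peak, with a fold enrichment of 3.04. The LNCaP change minus the VCaP change was -52.3 ± 14.3 (adjusted p = 0.0178, limma, with the lists of both lines shortened to one length). That call ended without replicate 3 of LNCaP (-44.2) or replicate 1 of VCaP (-47) at 10 nM, with all peaks as deposited (-21.5), when ranked by fold enrichment (-51.6, adjusted p = 0.0529, limma) and without VCaP vehicle replicates 1 and 2 (adjusted p = 0.0977, limma).

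Near CCND3, chr6:41859270-41859770 in USP49, 75.4 kb from the gene, had 91.6, 85.6 and 85.1 at 10 nM and 59.6, 52 and 66.2 in vehicle in LNCaP. It rose by 28.2 points (± 3.61, adjusted p = 3.27e-05, limma) and was already up at the low doses by 19.8 (± 2.94, adjusted p = 0.000326, limma). VCaP values were 79.2, 70.3 and 73.5 at 10 nM and 39.7, 0 and 39 in vehicle, and these groups did not overlap either, but the difference of 48.1 ± 17 was not called (adjusted p = 0.0842, limma). On the other side, chr6:42083537-42084037 in TAF8 had 70.3, 73 and 78.8 at 10 nM in LNCaP, against 31, 0 and 0 in vehicle, a rise of 63.7 ± 10.5 (adjusted p = 0.000273, limma). The strongest CCND2 and CCND3 peaks away from the ends kept high ranks at every dose: chr12:4320843-4321343 near the end of TIGAR ranked from 95.1 to 99.6 and chr6:41895267-41895767, 0.142 kb from USP49, from 89.4 to 96.4 over all 30 libraries.

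The kinase genes CDK4 and CDK6, partners of the D-type cyclins, differed in how many regions moved. CDK4 is a short gene among many others, and its 2 falls in LNCaP both rested on settings or single libraries. At chr12:57765095-57765595 in CYP27B1, which encodes the vitamin D hydroxylase, LNCaP had 0 in all 3 libraries at 10 nM and 28.7, 33.1 and 41 in vehicle, a difference of -34.3 (± 9.33, adjusted p = 0.0116, limma). The full lists held the peak in all 6 libraries, with fold enrichments of 2.19, 2.41 and 2.4 at 10 nM and 2.76, 2.66 and 2.09 in vehicle, so on that scale the groups overlapped. It was not called when peaks were matched by overlap (-14.7) or centre base (-14.7), with all peaks kept (-18.3) or ranked by fold enrichment (-12.9). The other fall, at chr12:57812890-57813390 in AVIL, was -36.2 ± 10.6 (adjusted p = 0.0183, limma) and was not called without replicate 3 (-34.2) or 5 (-34.2) at 10 nM or replicate 3 (-34.5) or 5 (-29.1) of vehicle, nor with all peaks kept (-21.3) or ranked by fold enrichment (-25.9).

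CDK6, a gene of over 200 kb, gained and lost peaks along its length. One rise lay at chr7:92802371-92802871, 34 kb inside the gene from its higher-coordinate end. LNCaP had 37.1, 34.9 and 14.6 in vehicle, 75.5, 69.3 and 59.9 at 0.03 nM, 77.9, 78.6 and 77.7 at 0.06 nM, 75.5, 81.7 and 76.7 at 0.1 nM, and 80.4, 80.3 and 81.9 at 10 nM. Every library with hormone lay above every vehicle library, and most of the rise was present at the lowest dose. The low doses were 45.9 points above vehicle (± 4.54, adjusted p = 4.87e-06, limma) and 10 nM was 52 above it (± 5.56, adjusted p = 6.81e-06, limma), while 10 nM and the low doses differed by 6.1 ± 4.54, which was not called (adjusted p = 0.46, limma). In VCaP it had 65.8, 80.9 and 58.4 at 10 nM and 0 in all 3 vehicle libraries, a rise of 68.3 ± 14.2 (adjusted p = 0.00426, limma) that was not called among the 50000 strongest entries (33.5). VCaP low-dose means were 23.1 at 0.01 nM, 54.7 at 0.03 nM and 57.1 at 0.06 nM, and their rise of 45 ± 11.6 over vehicle was not called (adjusted p = 0.0881, limma).

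Further regions inside CDK6 rose in both lines. At chr7:92645971-92646471 LNCaP had 83, 88.8 and 87.7 at 10 nM and 42.4, 0 and 0 in vehicle, a rise of 72.4 ± 9.69 (adjusted p = 4.74e-05, limma), and the low doses ranged from 44.7 to 79.3. VCaP had 79.5, 89.6 and 77.1 at 10 nM and 0 in all 3 vehicle libraries, a difference of 82 ± 24.3 (adjusted p = 0.0373, limma). The VCaP call ended without any one of the 6 libraries, at 78.3 to 84.5, and turned to -0.744 when peaks were matched by overlap. It was not called by centre base (27.4) or with no filter (adjusted p = 0.0571, limma) either. At chr7:92791523-92792023 the order of doses was visible in LNCaP: 0 in all vehicle libraries and at 0.03 nM, 30.9, 17.3 and 32.6 at 0.06 nM, 37.9, 51.2 and 46.1 at 0.1 nM, and 61.8, 70.9 and 61 at 10 nM. The rise at 10 nM was 64.6 ± 8.4 (adjusted p = 3.75e-05, limma). VCaP had 70.4, 51.1 and 63 at 10 nM and 23.5, 0 and 0 in vehicle, a rise of 53.7 ± 14.9 (adjusted p = 0.0265, limma) that was not called without replicate 1 (49.2) or 4 (52.9) at 10 nM or replicate 2 (49.8) or 4 (49.8) of vehicle, nor among the 50000 strongest entries (20.1) or with no filter (adjusted p = 0.06, limma). A strong peak 97.7 kb beyond the gene, chr7:92933995-92934495, went up in both lines, to 94.6, 93.1 and 95.6 at 10 nM in LNCaP, against 76.2, 77.6 and 81.4 in vehicle (16 ± 1.91, adjusted p = 1.77e-05, limma). In VCaP it had 86.1, 84.2 and 84.9 at 10 nM and 71.5, 58.7 and 65.6 in vehicle, a rise of 19.8 ± 5.51 (adjusted p = 0.0267, limma) that was not called without replicate 1 (19.3), 2 (20.2) or 4 (19.8) at 10 nM or replicate 2 of vehicle (16.5), nor with a peak required in at least 8 libraries (adjusted p = 0.0511, limma) or no filter (adjusted p = 0.0655, limma).

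**Figure D4:**
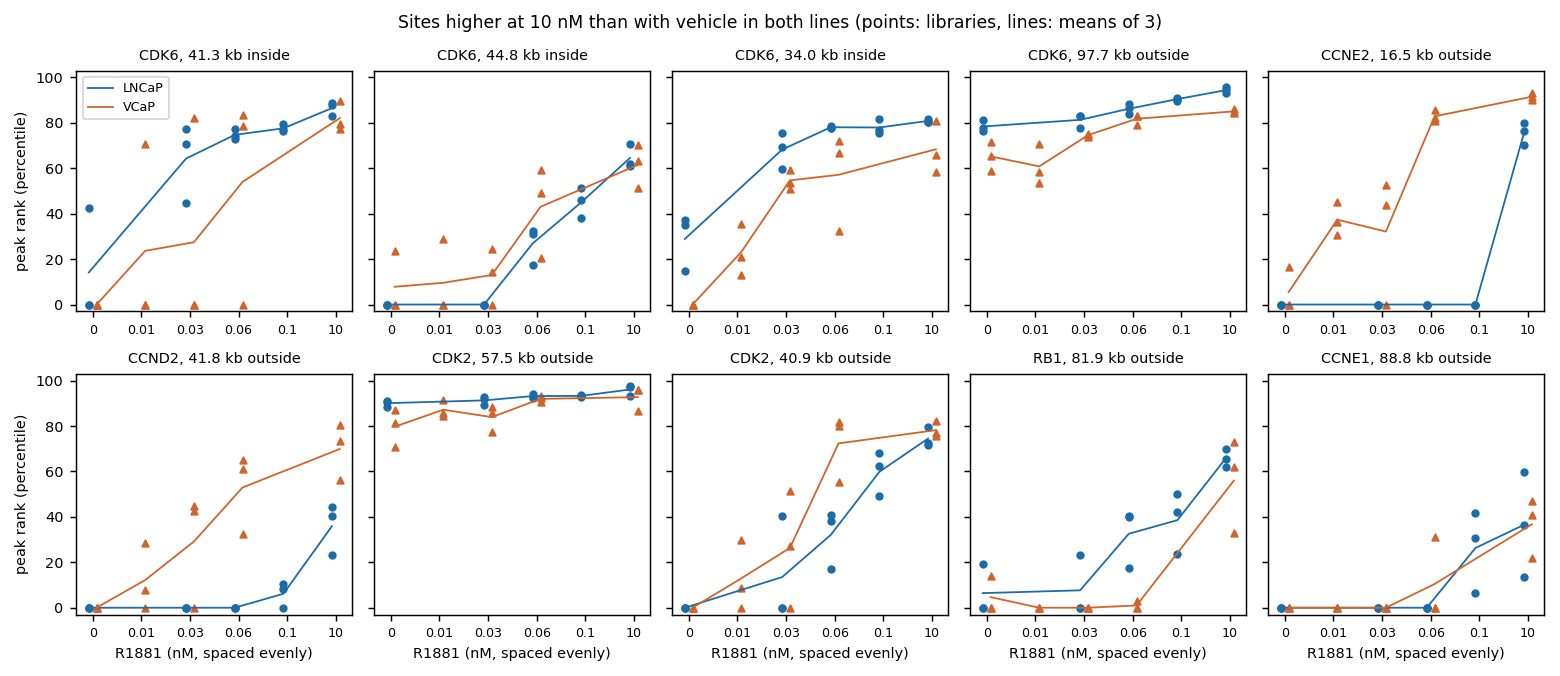
Percentile rank (vertical axis, 0 to 100) by dose of R1881 for regions that rose at 10 nM in both lines; each point is 1 library and the line joins group means. In LNCaP the CDK6 region 34 kb inside the gene is near its final rank at 0.03 nM, whereas the CCNE2 region 16.5 kb beyond the gene is at 0 until 10 nM.

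One CDK6 region ranked high in VCaP and at 0 in the shortened LNCaP lists. The region chr7:92698377-92698877 had a peak in 3 of the 15 full LNCaP lists, with fold enrichments of 2.24, 2.31 and 2.76. It ranked 69, 74.7 and 62.6 at 10 nM in VCaP, against 35.1, 14.7 and 49.6 in vehicle. All 9 low-dose VCaP libraries, from 52.6 to 76.6, also lay above vehicle. The rise of 35.6 ± 9.92 at 10 nM (adjusted p = 0.0265, limma) was not called without replicate 1 (35.5), 2 (32.7) or 4 (38.7) at 10 nM or replicate 2 of vehicle (26.4), nor among the 50000 strongest entries (34.4) or with only the 2 groups fitted (adjusted p = 0.12, limma), and the low-dose rise of 34.4 ± 8.1 was not called (adjusted p = 0.0535, limma). Over the shared doses LNCaP minus VCaP was -61.1 ± 3.35 (adjusted p = 4.05e-14, limma).

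Falls inside CDK6 were called in LNCaP. At chr7:92769850-92770350, LNCaP had 83.9, 85.4 and 71.6 in vehicle, 63, 78.7 and 59.9 at 0.03 nM, 58.1, 71.9 and 59.2 at 0.06 nM, 58.2, 45.2 and 14.5 at 0.1 nM, and 18.1, 0 and 0 at 10 nM. The mean rank was lower at each higher dose. In the full lists the peak was present at 10 nM in replicates 3 and 4, with fold enrichments of 3.95 and 1.97, and absent in replicate 5. The difference at 10 nM was -74.3 ± 10.1 (adjusted p = 5.56e-05, limma), and the low doses differed from vehicle by -23.8 ± 8.27, which was not called (adjusted p = 0.102, limma). VCaP had 0 in all 3 libraries at 10 nM and 45.9, 0 and 0 in vehicle, a change not called (-15.3 ± 11.1, adjusted p = 0.468, limma). At chr7:92674304-92674804, LNCaP had 0 in all 3 libraries at 10 nM and 56.5, 60.5 and 52.5 in vehicle, a difference of -56.5 (± 13.1, adjusted p = 0.00393, limma) that was not called when the centre base had to be covered (-39). The VCaP values there, 25.1, 27.3 and 8.09 at 10 nM and 65.9, 72 and 39 in vehicle, did not overlap, but the difference of -38.8 ± 15.8 was not called (adjusted p = 0.141, limma).

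The products of the E-type cyclin genes, which are targets of E2F, are partners of CDK2. The largest called rise and the largest called fall of each line at 10 nM were listed under CCNE2, in or near neighbouring genes. The gain was chr8:94912919-94913419, 16.5 kb beyond CCNE2 in NDUFAF6, a gene for an assembly factor of mitochondrial complex I. LNCaP had 0 in all 3 vehicle and all 9 low-dose libraries and 76.4, 70.4 and 80.1 at 10 nM. The rise of 75.6 ± 7.01 was the same against vehicle (adjusted p = 1.79e-06, limma) and against the low doses (± 5.72, adjusted p = 1.37e-06, limma). In LNCaP the region passed the filter of 3 libraries only through the 3 libraries at 10 nM. Without any 1 of them it was not tested, so the filter and these p-values rest on the same libraries. VCaP had 0, 0 and 16.4 in vehicle, 30.5, 45.1 and 36.5 at 0.01 nM, 43.9, 0 and 52.5 at 0.03 nM, 80.9, 82 and 85.7 at 0.06 nM, and 93.1, 91.5 and 90 at 10 nM. The full LNCaP lists held it at 0.1 nM in replicate 5, with a fold enrichment of 3.3. VCaP had ranks above 0 at doses where the shortened LNCaP lists had none; the difference between the lines at the low doses alone was not tested. At 10 nM VCaP rose by 86 ± 13.7 over vehicle (adjusted p = 0.00085, limma). Over the shared doses LNCaP minus VCaP was -35.8 ± 4.32 (adjusted p = 1.12e-07, limma). This was the one VCaP rise of the 12 that was still called when vehicle replicates 1 and 2 were left out together (75.1, adjusted p = 0.0403, limma).

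CCNE2 also had the falls called in both lines. At chr8:94990974-94991474, 94.5 kb beyond the gene and also in NDUFAF6, LNCaP had 68.8, 68.7 and 64.1 at 10 nM and 91.7, 93.1 and 92.9 in vehicle, a difference of -25.4 (± 1.71, adjusted p = 7.33e-08, limma). VCaP had 76.4, 83.9 and 65 at 10 nM and 97.6, 90.8 and 94.5 in vehicle, a difference of -19.2 (± 3.57, adjusted p = 0.00208, limma). Low-dose libraries stayed near vehicle, from 87.1 to 91.5 in LNCaP and from 84.1 to 95 in VCaP, so the drop came between the low doses and 10 nM in both lines. Against the low doses, 10 nM differed by -22.4 ± 1.39 in LNCaP (adjusted p = 2.35e-07, limma) and by -15.1 ± 2.92 in VCaP (adjusted p = 0.00261, limma). At chr8:94951184-94951684 in the same gene, the differences were -36.6 ± 6.56 in LNCaP (adjusted p = 0.000549, limma) and -43.5 ± 9.65 in VCaP (adjusted p = 0.00653, limma). They were not called among the 50000 strongest entries in LNCaP (-18.2) or when ranked by fold enrichment in VCaP (-48.7), nor in VCaP with only the 2 groups fitted (adjusted p = 0.0626, limma). The largest LNCaP falls near CCNE2 lay on its other side. At chr8:94812952-94813452, 10.1 kb from INTS8, LNCaP had 0 in all 3 libraries at 10 nM and 93.4, 92.4 and 91.5 in vehicle (-92.4 ± 23.4, adjusted p = 0.00981, limma). At chr8:94783365-94783865 in DPY19L4 it had 5.59, 13.5 and 0 at 10 nM and 76.5, 84.2 and 78.3 in vehicle (-73.3 ± 7.46, adjusted p = 4.38e-06, limma). The largest VCaP fall, at chr8:94949901-94950401 in NDUFAF6, was -65.8 (adjusted p = 0.0491, limma). The difference there was 1.85 when peaks were matched by overlap or centre base. Leaving out 1 library ended that call for 5 of the 6 libraries tried.

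**Figure D5:**
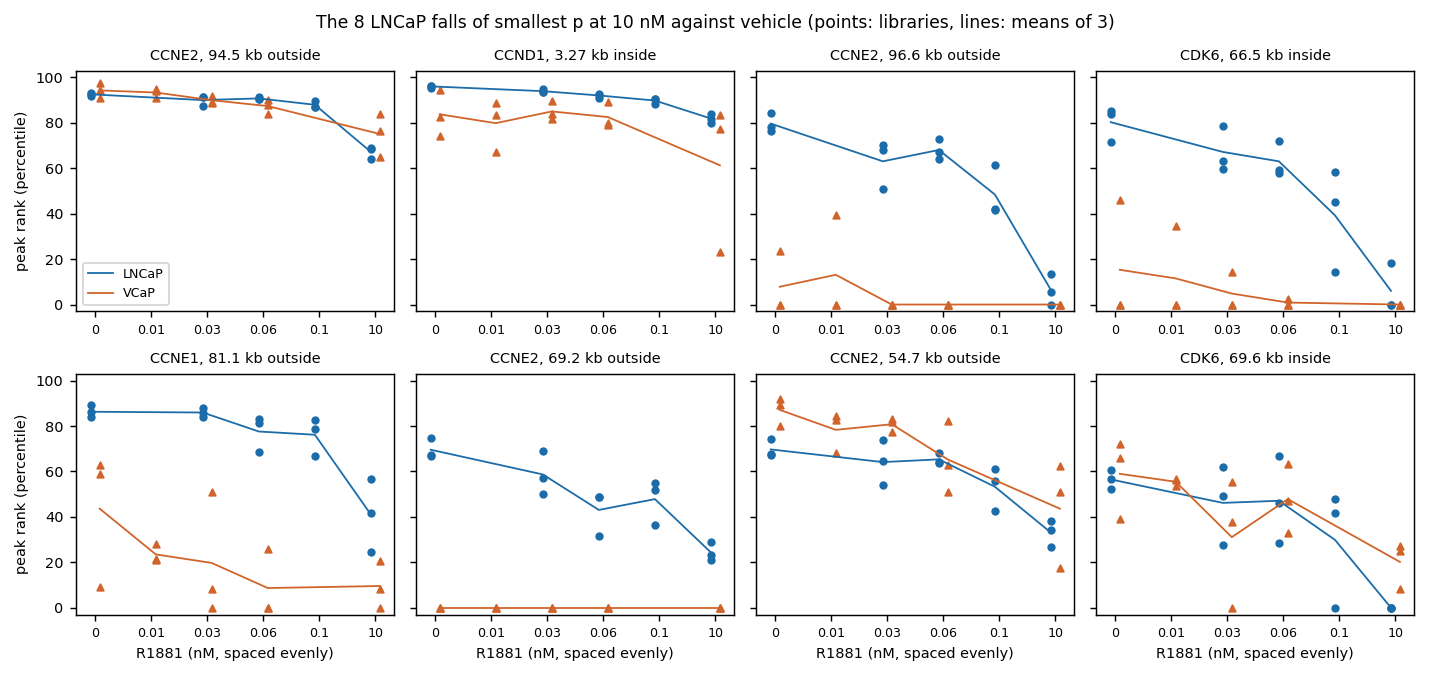
Percentile rank (vertical axis, 0 to 100) by dose of R1881 for the 8 regions with the smallest p among LNCaP falls at 10 nM; each point is 1 library and the line joins group means. The CCND1 region inside the gene steps down with each dose in LNCaP. The CCNE2 region 94.5 kb beyond the gene falls mostly between the low doses and 10 nM in both lines.

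CCNE1 lost rank at a region close to its start in LNCaP. The region chr19:29806048-29806548, 5.69 kb from the gene, had 89.3, 89.9 and 76.5 in vehicle, 83.4, 85 and 69.9 at 0.03 nM, 83.2, 86.7 and 68.1 at 0.06 nM, 80, 78.9 and 64.5 at 0.1 nM, and 73.2, 33.7 and 43.4 at 10 nM. It fell by 35.1 points at 10 nM (± 8.36, adjusted p = 0.00495, limma; 0.051 when only the 2 groups were fitted), while the start itself kept its rank (-2.86 ± 2.7, adjusted p = 0.481, limma). All 15 VCaP libraries had 0 there, and over the shared doses LNCaP was 66 ± 4.65 points higher (adjusted p = 7.1e-12, limma). Farther away, chr19:29905209-29905709 near URI1 had 56.9, 41.5 and 24.6 at 10 nM and 86, 89.1 and 83.8 in vehicle in LNCaP, a difference of -45.3 (± 6.4, adjusted p = 7.51e-05, limma). In VCaP it had 20.6, 0 and 8.09 at 10 nM and 62.9, 58.7 and 9.28 in vehicle, a difference not called (-34.1 ± 16.4, adjusted p = 0.227, limma). A VCaP rise, chr19:29720706-29721206, 5.17 kb from C19orf12, had 77.6, 73.5 and 72.2 at 10 nM and 0 in all 3 vehicle libraries (74.4 ± 16.5, adjusted p = 0.00659, limma). LNCaP had 63.1, 45.9 and 53.8 at 10 nM and 43.5, 58.5 and 59.6 in vehicle at that region, with no difference called (0.376 ± 7.89, adjusted p = 1, limma), and the changes differed between the lines by -74 ± 19.1 (adjusted p = 0.0118, limma), a call that ended among the 50000 strongest entries (-46.2) and without VCaP vehicle replicates 1 and 2 (adjusted p = 0.0738, limma).

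CDK2, the kinase of cyclin E, has a short gene body, and its called regions at 10 nM lay in or beside neighbouring genes. One of them was chr12:56013475-56013975, 40.9 kb beyond it in IKZF4, which encodes a zinc finger transcription factor. LNCaP had 0 in all 3 vehicle libraries, 40.5, 0 and 0 at 0.03 nM, 38.2, 40.9 and 17.1 at 0.06 nM, 62.3, 68.3 and 49 at 0.1 nM, and 79.6, 72.4 and 71.5 at 10 nM. VCaP had 0 in all 3 vehicle libraries, 30, 0 and 8.76 at 0.01 nM, 51.6, 0 and 27.4 at 0.03 nM, 81.9, 55.2 and 80 at 0.06 nM, and 82.1, 75.6 and 76.9 at 10 nM. In both lines the mean rank increased with each dose. The rise at 10 nM was 74.5 ± 11.2 in LNCaP (adjusted p = 0.000127, limma) and 78.2 ± 15.3 in VCaP (adjusted p = 0.00283, limma), and the lines did not differ detectably in it (-11 ± 15.1, adjusted p = 0.742, limma). At chr12:55955985-55956485 in PMEL, a pigment cell gene, LNCaP had 74.2, 75.4 and 71.5 at 10 nM and 52, 54.3 and 0 in vehicle, a rise of 38.3 ± 10.4 (adjusted p = 0.0115, limma; 0.11 when only the 2 groups were fitted). The shortened VCaP lists had 0 in all 15 libraries there, but the full lists held a peak at 10 nM in replicates 1 and 4, with fold enrichments of 2.63 and 2.06, and in no other VCaP library. The strongest peak near CDK2, chr12:55973636-55974136 at RAB5B, ranked from 99.7 to 100 in all 30 libraries and was called in none of the 8 comparisons (10 nM against vehicle: -0.0914 ± 0.578 in LNCaP and -0.0156 ± 1.05 in VCaP).

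RB1, the substrate of these kinases, had rises inside and outside the gene. Inside, 87.6 kb from the nearer end, chr13:48391136-48391636 had 56.5, 8.15 and 0 in vehicle in LNCaP, 72.2, 66.2 and 55.7 at 0.03 nM, 78.4, 74.3 and 59.8 at 0.06 nM, 79.7, 71.1 and 64.9 at 0.1 nM, and 75.2, 72.5 and 68.6 at 10 nM. The full rise was present at the low doses, 47.6 ± 8.9 over vehicle (adjusted p = 0.00243, limma), with 50.6 ± 10.9 at 10 nM (adjusted p = 0.00234, limma). One vehicle library, replicate 3, lay within the range of the low doses. Among the 50000 strongest entries these rises were 19.8 and 24.7 and were not called, nor was that at 10 nM with only the 2 groups fitted (adjusted p = 0.0507, limma). VCaP reached 39.5 there in 1 of 3 libraries at 10 nM and had 0 in vehicle, a difference not called (15.9 ± 9.45, adjusted p = 0.355, limma), and LNCaP was 42.9 ± 5.34 points higher over the shared doses (adjusted p = 2.06e-07, limma). Outside, chr13:48221638-48222138, 81.9 kb below RB1 and 11.3 kb from ITM2B, had 62.1, 70.1 and 65.7 at 10 nM and 19.3, 0 and 0 in vehicle in LNCaP. VCaP had 32.9, 72.9 and 62.1 at 10 nM and 14, 0 and 0 in vehicle. The rises were 59.6 ± 10.8 in LNCaP (adjusted p = 0.000584, limma) and 51.3 ± 11 in VCaP (adjusted p = 0.00536, limma; 0.0571 when only the 2 groups were fitted). In VCaP the 9 low-dose libraries held at most 3, so 10 nM stood 55.6 ± 9.01 above them (adjusted p = 0.000662, limma).

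Of the 28 regions that rose in LNCaP at 10 nM, 10 also rose in VCaP, none fell, 9 were not called and 9 were not tested there. The 10 were 83.3% of the VCaP rises and 35.7% of the LNCaP ones. The same shares over all regions were not computed, so nothing particular to the 9 genes is read from them. The 10 shared rises comprise 4 at CDK6, 2 at CDK2 and 1 each at CCND2, CCNE1, CCNE2 and RB1. Those not described above are weaker: chr12:55909123-55909623 in PYM1 near CDK2, which rose by 6.05 points in LNCaP (± 1.35, adjusted p = 0.00306, limma) and by 13 in VCaP (± 3.84, adjusted p = 0.0362, limma), and chr19:29912822-29913322 near URI1 at CCNE1, which rose by 36.6 (± 10.7, adjusted p = 0.0183, limma) and 36.8 (± 10.1, adjusted p = 0.0247, limma). The PYM1 region differed by -0.505 in LNCaP when ranked by fold enrichment, and its VCaP call ended without replicate 1 (11.4) or 4 (11.6) at 10 nM or replicate 1 (13.8) or 2 (8.66) of vehicle. The URI1 region was not called in LNCaP without replicate 3 at 10 nM (25), nor in VCaP without replicate 1 (34.7) or 4 (31.5) at 10 nM or any vehicle library (36.8).

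Fewer regions were called between the low doses and vehicle than between 10 nM and vehicle. Against vehicle, 10 LNCaP regions rose (4.69%) and 3 fell (1.41%) at the low doses, against 6.15% and 1.76% of all regions. The rises lay at CDK6 with 4, CCND3 with 3, and CCNE1, CDK2 and RB1 with 1 each, and the falls at CCND1, CCND2 and CDK6. In VCaP limma called none of 181 regions in either direction at the low doses, where 0.609% and 0.194% of all regions were called; at an unadjusted p under 0.05, 10 were higher and 5 lower. Against the low doses, 10 nM gave 15 rises and 15 falls in LNCaP (7.04% each, against 9.72% and 6.22% of all regions) and 4 rises and 2 falls in VCaP (2.21% and 1.1%, against 4.59% and 1.2%). These comparisons share libraries with those above. Of the 28 LNCaP rises at 10 nM, the 5 group means increased or stayed level in dose order at 19, and the low-dose mean was nearer to 10 nM than to vehicle at 12. Of the 24 falls, the means were in dose order at 13, and the low-dose mean was nearer to 10 nM at 5. These regions were chosen by 10 nM against vehicle, which fixes the ends of the order, and groups level at 0 count as in order. The same counts over all called regions were not made, so they are a description and no test of a dose response.

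More of these regions were called between the lines than between doses. The line comparison drew on 12 libraries per line, whereas 10 nM and vehicle held 3 each, so these counts are not like for like. Over the shared doses, 47 of 171 member regions in the fit over both lines ranked higher in LNCaP (27.5%) and 40 lower (23.4%). Over all 135020 regions these shares were 41% and 25.8%. That fit required a summit in 6 of 30 libraries, so a region could be at 0 in every library of LNCaP or of VCaP. Of the named regions, the largest positive difference (LNCaP minus VCaP) was at chr12:55957495-55957995 in PMEL near CDK2, at 71.1 ± 3.18 (adjusted p = 6.45e-16, limma), with 72.1 to 92 in LNCaP and 0 to 16.1 in VCaP. Near CDK4, chr12:57727591-57728091 in AGAP2 had 72.8 to 84.2 in LNCaP and 0 to 17 in VCaP, a difference of 69.2 ± 2.88 (adjusted p = 1.5e-16, limma) that was not called when peaks were matched by overlap (30.4, adjusted p = 0.0724). In the other direction, the CYP27B1 region near CDK4 had 0 to 41 in LNCaP and 45.6 to 85.6 in VCaP (-65.8 ± 4.1, adjusted p = 5.31e-13, limma). The LNCaP change at 10 nM minus the VCaP change was called positive at 5 of these regions (2.92%) and negative at 9 (5.26%), against 5.59% and 4.96% of all regions. Line and depth cannot be told apart in these comparisons: background pileup was 3.06 to 5.26 in LNCaP and 1.09 to 2.74 in VCaP.

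The other genes of the pathway were taken from a list of 28 genes for CDK inhibitors, E2F and DP factors, RB1 relatives, A-type cyclins and regulators of the cyclins, counting regions nearest to each. In LNCaP at 10 nM, 29 of 223 regions rose (13%), at 13 genes, and 30 fell (13.5%), at 14 genes, against 16.7% and 10.2% of all regions. In VCaP, 10 of 163 rose (6.13%), at 9 genes, and 3 fell (1.84%), at 3 genes, against 7.07% and 2.71% of all regions. Among regions nearest to the 9 genes themselves, 10 of 77 rose in LNCaP (13%), at CDK6 and RB1, and 9 fell (11.7%). E2F7, a repressor of the E2F family, had a region averaging 80 ± 2.91 at 10 nM and 2.94 ± 5.09 in vehicle in LNCaP (SD, n = 3 each; adjusted p = 2.22e-06, limma), and another that fell to 34.8 ± 26, against 84.1 ± 5.14 (SD, n = 3 each; adjusted p = 0.000511, limma). The CDK inhibitor gene CDKN1A had one inside it at 76.3 ± 4.87 at 10 nM and 0 in vehicle (SD, n = 3 each; adjusted p = 0.000314, limma), and CDKN1A was also among the genes with a called fall. AMBRA1, whose product directs D-type cyclins to degradation, had one region that rose to 82.6 ± 4.84 at 10 nM, against 0 in vehicle, and another that fell to 18.8 ± 13.4, against 81.7 ± 5.71 (SD, n = 3 each; adjusted p = 2.65e-06 and 8.98e-06, limma). In VCaP, E2F3 had a called rise and a called fall, and the region that fell had 65 ± 13.1 at 10 nM, against 88.8 ± 5 in vehicle, while one at CDC25A, a phosphatase that activates CDK2, fell to 88 ± 7, against 97.1 ± 0.356 (SD, n = 3 each; adjusted p = 0.00492 and 0.0184, limma). At KLK3 and FKBP5, known androgen receptor targets, 14 of 30 regions rose in LNCaP (46.7%) and 10 of 22 in VCaP (45.5%).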

How the data were processed

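Omni-ATAC-seq libraries from 2 cell lines were grouped by the line and dose in their labels. Per the submitters' processing notes, the tools were MACS2 2.2.7.1, deepTools 3.5.1, BWA 0.7.17 and Trimmomatic 0.39, with GRCh38 (hg38). The authors deposited 1 peak list per library; its values are the −log10 p and −log10 q of each summit, a ratio (fold enrichment over local background) and a score, and the lists end at a −log10 p of 2. The deposited summit offset, in bp and of no standard unit, placed each peak. The lists hold no read counts, so depth is unknown and no counting interval is given; background pileup was solved from the fold and −log10 p, with whole-number pileups (within 0.05) for 100% of peaks solved.

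Regions of 250 bp to either side were placed on summits, strongest first. Lists were shortened to 134964 entries in LNCaP and 104924 in VCaP (104924 for fits over both). Regions with a summit in at least 3 of 15 libraries (6 of 30 for both lines) were tested with limma 3.58.1 (R 4.3.3; group means, trend, robust, two-sided). Python 3.11.15, numpy 2.4.6, pandas 2.3.3 and scipy 1.17.1 did the rest. The limma step was tested on simulated data. Named regions are, per gene, the promoter region, the strongest region elsewhere and the called regions of smallest p per comparison and direction. Regions called at 10 nM against vehicle, at gene ends or overlapping a promoter window were added after their values were seen, giving 86. The members and lists were chosen with earlier results of these data known. RefSeq gave no strand for CCND1, CCND2, CCNE2 and CDK2, whose ends are called lower and higher by coordinate. Alternatives changed how peaks were matched, ranked, filtered or shortened, added a replicate block, or left libraries out.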

Additional observations from a re-analysis of the deposited data

Results flagged for a closer look

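At 14 of the 171 regions in the fit over both lines, the change at 10 nM against vehicle differed between the lines by a test of the difference itself (limma, adjusted p under 0.05). Where every library of a line was at 0, the difference is the change of the other line alone. Values are the LNCaP change minus the VCaP change in percentile points, with the lists of both lines shortened to one length. The share called over all regions was 5.59% positive and 4.96% negative.

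The 9 negative differences fell into regions that rose in VCaP and regions that fell in LNCaP. VCaP rose at chr12:4346929-4347429 near CCND2 (-52.3), chr19:29720706-29721206 near CCNE1 (-74) and chr7:92698377-92698877 inside CDK6 (-35.6). LNCaP fell at chr19:29806048-29806548 near CCNE1 (-45.2), chr8:94783365-94783865 and chr8:94965686-94966186 near CCNE2 (-66.1 and -57.6) and chr7:92769850-92770350 inside CDK6 (-59.4), where most or all VCaP libraries were at 0 in the shortened lists. At chr6:42142371-42142871 near CCND3 (-54.5), LNCaP had 76.4, 58 and 60 at 10 nM and 82.7, 83.8 and 80.6 in vehicle, while VCaP had 68.4, 74.3 and 77 at 10 nM and 58.2, 0 and 65.7 in vehicle. At chr12:55927070-55927570 near CDK2 (-35.6), LNCaP had 77.6, 59 and 52 at 10 nM and 85.1, 88.3 and 80.9 in vehicle, while VCaP had 87.5, 87.2 and 86.8 at 10 nM and 79.2, 80.3 and 79.6 in vehicle. The CDK2 difference was 1.82 when peaks were matched by overlap.

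The 5 positive differences were at chr6:42137128-42137628 and chr6:42138805-42139305 near CCND3 (47.2 and 26.2), chr19:29741668-29742168 near CCNE1 (40.1), chr8:94959818-94960318 near CCNE2 (64) and chr12:55955985-55956485 near CDK2 (39.7). LNCaP rose at all 5. At the CCNE2 region LNCaP had 72.6, 75.6 and 77.2 at 10 nM and 34.2, 30.1 and 0 in vehicle, while VCaP had 87.3, 89 and 90.9 at 10 nM and 96.4, 92 and 92.2 in vehicle.

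Without VCaP vehicle replicates 1 and 2, which had the lowest background pileup, 3 positive and 3 negative differences were called in place of 5 and 9. With all peaks as deposited, the differences at CCND2 (-21.5), CCNE1 29806048 (-19.8), CCNE2 94783365 (-40.9), CDK6 92698377 (-30.6), CDK6 92769850 (-56) and CDK2 55955985 (35.6) were among those no longer called. At CDK2 55955985 the full VCaP lists held a peak at 10 nM in replicates 1 and 4 and in no other VCaP library. Single libraries ended 6 of the calls. These were CCND2 (-44.2 without LNCaP replicate 3 and -47 without VCaP replicate 1, both at 10 nM), the first CCND3 region with a positive difference (41.3 without LNCaP replicate 5 at 10 nM) and the second (20.9 to 26.9 without any one of 7 libraries). The others were CCNE1 29741668 (25.9 to 39.9 without any one of 3 libraries), CCNE1 29806048 (-42.6 to -34.6 without any one of 4) and CDK6 92769850 (-51.7 without VCaP vehicle replicate 2 or 4).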

How the results depend on the processing

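Counts of called regions are given as higher and then lower in each comparison, and the cause of a change was not tested. The number of regions tested also changed with the setting, among the members and over all regions. A changed count is therefore not read as particular to the 9 genes. For 10 nM against vehicle in LNCaP (28 and 24 of 213 tested), the 50000 strongest entries gave 11 and 11 of 101. All peaks as deposited gave 49 and 15 of 265, and a peak in at least 8 libraries 17 higher of 137. Over all regions the main fit gave 27560 and 16897 of 165132. These settings gave, in the same order, 10897 and 8349 of 62601, 41510 and 7390 of 216239, and 18075 higher of 108671. For the low doses in LNCaP (10 and 3), the 50000 strongest entries gave 5 higher, and the lower count was 1 by overlap, by centre base and by fold enrichment, 0 with all peaks or no filter, and 6 with a replicate block. For 10 nM against the low doses in LNCaP (15 and 15), the counts were 9 and 6 with the 50000 strongest entries and 27 and 8 with all peaks, with 7 higher at 8 libraries and 23 lower by fold enrichment. In VCaP at 10 nM (12 and 3), no filter gave 7 higher, leaving out vehicle replicates 1 and 2 gave 1 higher, and fold enrichment gave 1 lower. In VCaP at the low doses (0 and 0 by limma; 10 and 5 at an unadjusted p under 0.05), the higher count was 1 by centre base or with no filter, 2 by fold enrichment, and 3 with all peaks or a replicate block, and 1 was lower without vehicle replicates 1 and 2. Against the low doses in VCaP (4 and 2), a peak in at least 8 libraries gave 0 and 1, no filter 2 higher, a replicate block 7 higher and fold enrichment 1 lower. For the line difference (47 and 40), the higher count was 86 with all peaks, 31 with the 50000 strongest entries and 28 at the stricter filter, and the lower count was 71 by overlap, 65 by centre base and 23 at the stricter filter. For the line difference of the change (5 and 9), the counts were 14 and 3 with all peaks, 1 and 3 at the stricter filter, and 3 and 3 without VCaP vehicle replicates 1 and 2. It had 10 higher by overlap, 9 by centre base, 3 with the 50000 strongest entries, and 16 lower with a replicate block.

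Leaving out 1 library at a time gave 23 to 30 higher and 17 to 26 lower for LNCaP at 10 nM, 7 to 11 and 1 to 6 at the low doses, and 8 to 14 and 6 to 15 for 10 nM against the low doses. The VCaP ranges were 6 to 10 and 2 to 4, 0 to 2 and 0 to 1, and 1 to 4 and 1 to 2. The line difference gave 44 to 52 and 38 to 45, and that of the change 3 to 8 and 8 to 11. Of the LNCaP calls at 10 nM, no alternative tried ended 16 of 28 rises and 7 of 24 falls, against 1 of 12 rises and 0 of 3 falls in VCaP. Alternatives under which a region failed the filter do not count as ending its call. Among the 16 LNCaP rises, RB1 48274811 was not tested without 3 of the single libraries or in 2 settings. CCNE2 94912919 was not tested in LNCaP without 3 of the single libraries or in 1 setting, and further rises were untested in some settings.

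Some named regions turned round. By fold enrichment, CCNE2 94823018 was -6.24 in LNCaP at 10 nM, CDK4 57726467 was -2.91 against the low doses, and CDK2 55909123 was -0.505 against vehicle and -1.28 against the low doses. By overlap, CDK6 92645971 was -0.744 in VCaP. By overlap or centre base, CCNE2 94949901 was 1.85 in VCaP, and CDK2 55927070 was 1.88 and 1.44 in LNCaP against vehicle and the low doses, 9.22 between the lines and 1.82 for the difference of the change. The difference at CCND3 42083537 was 0 at the LNCaP low doses among the 50000 strongest entries, so there it was lost and not reversed.

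The replicate numbers do not pair the libraries in LNCaP by the rule used. Deviations of same-numbered LNCaP libraries correlated at -0.128 to 0.464, and those of differently numbered ones at -0.423 to 0.264. In VCaP these ranges were 0.0492 to 0.298 and -0.284 to 0.0875, so same-numbered VCaP libraries tended to deviate together. The main fits held no replicate term, and counts that moved with a replicate block are given above. The lists carry no read counts, and a value of 0 does not show that signal was absent.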
